A study of Bos taurus with 20 samples.

Results

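Eosinophil lineage genes were examined in maternal blood: 6 listed cattle symbols, IL5RA, GATA1, CEBPE, CD9, LOC617374 and EPX, chosen by symbol and matched to the Entrez identifiers of the counts through the NCBI cattle gene table. Of these, 5 were matched among 37063 identifiers, and each of the 5 passed the filter of at least 10 counts in at least 5 of the 20 cows, as did 16269 identifiers in all. EPX (eosinophil peroxidase) is not analysed here. LOC617374 carries PRG3 as a synonym in that table, the symbol of proteoglycan 3, a granule protein of eosinophils.

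Eosinophils are granulocytes made in bone marrow and known for defence against parasites and for allergic inflammation. Interleukin 5 is the cytokine that drives their maturation and survival, through a receptor made of the specific alpha chain IL5RA and the beta chain CSF2RB that is shared with other cytokines. GATA1 and CEBPE are transcription factors that act during eosinophil maturation, GATA1 also acts in red cell, megakaryocyte and basophil precursors, and CEBPE also acts in neutrophil precursors. CD9 is a tetraspanin of the cell surface that is found on eosinophils and also on platelets.

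Whole blood was drawn into Tempus RNA tubes on day 63 of gestation from 20 recipient cows, each carrying a female fetus made by in vitro fertilization of a beef donor's oocyte with sex-sorted semen. All cows therefore belonged to 1 condition, with 1 library for each, and the labels vary only in the birth weight (BW) of the calf that was later born. Calf BW was 45.0 ± 10.1 kg (SD, n = 20), from 30 to 72.5 kg, and 43.5 ± 7.97 kg (SD, n = 19) without the calf of 72.5 kg, which the study left out of its differential expression analysis. Recipient age differed between cows and is not in the labels, the recipients are called both dairy cows and Angus in the study's text, and no sequencing batch is named. Their part in any relation to BW was not tested. Each BW occurred once, so a cow is named below by the weight of its calf.

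Total counts were between 24632077 and 39892111 per cow, with a median of 33412740. No library repeated another, as all 190 pairs differed with a chi-square per degree of freedom of 12.2 or more. Values are CPM, counts scaled to the library's total after TMM normalization, and no level is compared between genes because lengths of transcripts were not at hand. The cows of the 45, 46, 56 and 72.5 kg calves had the highest IL5RA and were set beside the other 16 in summed markers of other blood cells. Their summed CPM of 12 platelet markers was between 635 and 689, against 699 to 1850 in the other 16 cows, and that of 12 erythroid markers was between 127 and 146, against 153 to 1159. These sums did not overlap between the 4 cows and the rest, though the platelet sums came close. Genes with many counts weigh most in a sum, here TUBB1, ITGB3 and PF4 for platelet markers and HBB for erythroid ones. Other markers of the same lists went the other way. Over the 20 cows, Pearson's r with IL5RA on log2 CPM was 0.80 for ITGA2B, 0.40 for KLF1 and 0.18 for GYPC. The sums of basophil and mast cell, neutrophil, neutrophil granule, monocyte, B cell, T cell and natural killer cell markers did overlap. No such comparison was made over all genes. The same 4 cows had 4 of the 5 lowest sums of 11 neutrophil markers, between 3881 and 4545 against 4478 to 6475. Of the 4, 3 were among the 5 lowest of the 20 cows in the sum of 9 monocyte markers (median 2324 in the 4 cows and 3096 in the rest) and 3 among the 5 lowest in total counts. Because these 4 cows were taken by their IL5RA and differ in other markers, the main counts, the correlations with BW and the slopes are given with and without them.

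IL5RA, the receptor chain that makes a cell responsive to interleukin 5, was the most variable member by coefficient of variation. Its level was 20.2 CPM in the cow of the 40 kg calf, 58.7 at the median and 198 in the cow of the 56 kg calf, a 9.79-fold range, and its mean was 66.1 ± 42.7 CPM (SD, n = 20). The second highest cow, that of the 46 kg calf, had 147 CPM, and the third, that of the 72.5 kg calf, 87.2. The first pair of cows thus stood above the other 18, which lay between 20.2 and 87.2 CPM. IL5RA counts were between 669 and 5141 per library, so that counting error alone gives a coefficient of variation of 2.51%, against 64.7% over the cows. On the log2 scale its SD of 0.84 was larger than that of 86.9% of the genes. LOC617374, on fewer counts, had a wider range (12.1-fold) and a larger log2 SD (0.88). In bulk blood, fewer cells of a type and less RNA per cell cannot be told apart.

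The transcription factors had a similar range. GATA1 was 6.12 CPM in the cow of the 41.5 kg calf, 15.1 at the median and 45.0 in the cow of the 56 kg calf, from 204 to 1195 counts. The cow of the 46 kg calf was again second, with 36.6 CPM. CEBPE was 5.0 CPM in the cow of the 41.5 kg calf, 13.1 at the median and 29.7 in the cow of the 46 kg calf, from 187 to 970 counts. For CEBPE the cow of the 45 kg calf, with 28.0 CPM, came before that of the 56 kg calf, with 26.3. Coefficients of variation were 57.4% for GATA1 and 49.3% for CEBPE.

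CD9 varied least. It was 17.6 CPM in the cow of the 41.5 kg calf, 31.5 at the median and 56.6 in the cow of the 46 kg calf, a 3.21-fold range, with a coefficient of variation of 33.7%. The cows of the 56, 50 and 54 kg calves followed closely, at 54.4, 51.8 and 49.5 CPM, while that of the 45 kg calf, among the highest for the receptor and both transcription factors, had 31.3 CPM. The granule gene LOC617374 rested on the fewest counts of the members, 16 to 169 per library. Its level was 0.428 CPM in the cow of the 41.5 kg calf, 2.31 at the median and 5.18 in the cow of the 46 kg calf. The cow of the 49.5 kg calf, with 22 counts and 0.548 CPM, was the only other cow below 1.63 CPM. Counting error is a larger part of this gene's spread than of the other members' spread, at 12.9% against an observed 49.3%. Its reads may be shared with other proteoglycan genes of its family, since how multi-mapping reads were handled is not stated, so its level is uncertain. The cow of the heaviest calf ranked 3 of 20 for IL5RA, 6 for GATA1, 8 for CEBPE, 13 for CD9 and 18 for LOC617374.

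**Figure D1:**
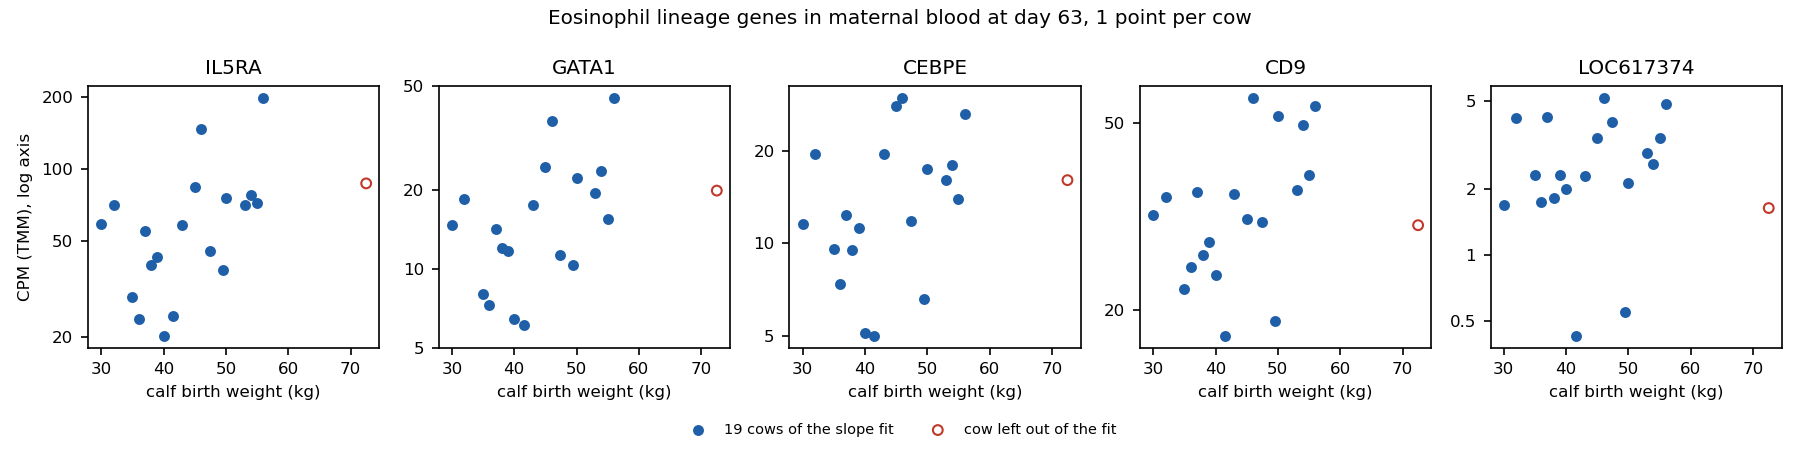
CPM after TMM scaling (log axis) of each measured member against calf birth weight in kg, with 1 point per cow; filled points are the 19 cows of the slope fit and the open point is the cow of the 72.5 kg calf. The cows of the 46 and 56 kg calves hold the highest levels of IL5RA (147 and 198 CPM), and those of the 41.5 and 49.5 kg calves the lowest levels of LOC617374 (0.428 and 0.548 CPM).

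The members varied together over the 20 cows. On log2 CPM, Pearson's r of IL5RA with GATA1 was 0.98 and Spearman's rho 0.97 (p = 1e-05 for both, two-sided permutation test, the smallest that 100000 resamples can give). Each was the gene most like the other among the 16268 other genes. The log2 ratio of the 2 genes had an SD of 0.16 over cows, while the genes themselves had SDs of 0.84 and 0.78. Without the 2 cows of most extreme IL5RA, r stayed at 0.98.

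Among IL5RA, GATA1, CEBPE and CD9, r over the 6 pairs lay between 0.83 (CEBPE with CD9) and 0.98, and rho between 0.82 and 0.97, with a permutation p of 4e-05 or less for each. GATA1 with CEBPE gave an r of 0.94, IL5RA with CEBPE 0.91, GATA1 with CD9 0.88 and IL5RA with CD9 0.85. LOC617374 followed the others less closely. Its r was 0.60 with IL5RA (permutation p = 0.00465), 0.61 with GATA1 (permutation p = 0.0035), 0.73 with CEBPE (permutation p = 0.00025) and 0.73 with CD9 (permutation p = 0.00012), and rho was between 0.52 and 0.69. Without the 2 cows farthest from the median of the first gene of each pair, these 4 values were 0.60, 0.49, 0.69 and 0.61. The difference between the members in this was not tested. These are 10 pairs of genes chosen together, so no p is adjusted over them, and the place of each pair among all genes is the fuller description: LOC617374 ranked between 405 and 877 among the genes most like the others. The median r over the 10 pairs was 0.84, and without the 4 cows of highest IL5RA it was 0.86. Total counts had an r between -0.34 and -0.20 with the 5 members (permutation p from 0.140 to 0.386).

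The genes most like the members over the genome were then listed. IL5RA had an r above 0.9 with 89 of 16268 genes (0.547%), GATA1 with 94, CEBPE with 52, CD9 with 25 and LOC617374 with 4. Without the 4 cows of highest IL5RA these counts were 31, 37, 34, 37 and 5. After GATA1, the genes nearest to IL5RA were LOC518134, the ciliary transport gene WDR35, the long noncoding RNA LOC100848368 and LYPD6, with r from 0.97 to 0.98. For GATA1 they were IL5RA, LOC518134, the growth factor binding protein IGFBP4, ALOX5 (5-lipoxygenase, which starts leukotriene synthesis) and RAB44, a large Rab GTPase. CEBPE was followed most closely by CUEDC1, the sphingomyelinase SMPD3, ALOX5, MPO and COQ8A (r from 0.96 to 0.97). The genes nearest to CD9 were the mitochondrial carrier UCP2 (r = 0.97), the integrin chain ITGB7, the autophagy kinase ULK1, TAGLN2 and MBOAT7. Those of LOC617374 were the linker histone H1-10 (r = 0.93), ABR, the guanylate kinase GUK1, the granule exocytosis protein STXBP2 and the actin regulator PFN1. These correlations are descriptions over the same 20 cows, and genes are not independent replicates.

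There were 27 genes among the 50 nearest of at least 3 members, and 26 without the 4 cows of highest IL5RA, 21 of them shared. Only 1 of the 27 was among the 50 nearest of LOC617374, so the 27 describe mainly the other 4 members. Their mean r over the 5 members was between 0.84 and 0.90, whereas the 99th percentile of all genes was 0.79. COQ8A, a mitochondrial kinase-like protein of coenzyme Q synthesis, came first with 0.90, from 18 to 83.6 CPM over the cows. The hexokinase HK3 (199.8 to 692 CPM) and PGD of the pentose phosphate pathway (206 to 721 CPM) came next, each also with a mean r of 0.90, and the hexokinase HK2 (37.8 to 150 CPM) had 0.87. ALOX5 ranged from 29.0 to 242 CPM, and CRAT, carnitine acetyltransferase, from 52.1 to 104 CPM. Also in the list were GFI1B, a transcriptional repressor of blood cell precursors (4.96 to 28.4 CPM), PADI4, which converts arginine to citrulline in histones (58.6 to 231 CPM), ITGB7, CUEDC1, RAB44, IGFBP4, GAS7 and LOC100297044. MPO, the peroxidase of neutrophil granules, reached a mean r of 0.90, from 172 to 1258 counts per library. MPO and EPX belong to 1 family of peroxidases, so reads counted for MPO may be shared and its level is uncertain.

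**Figure D2:**
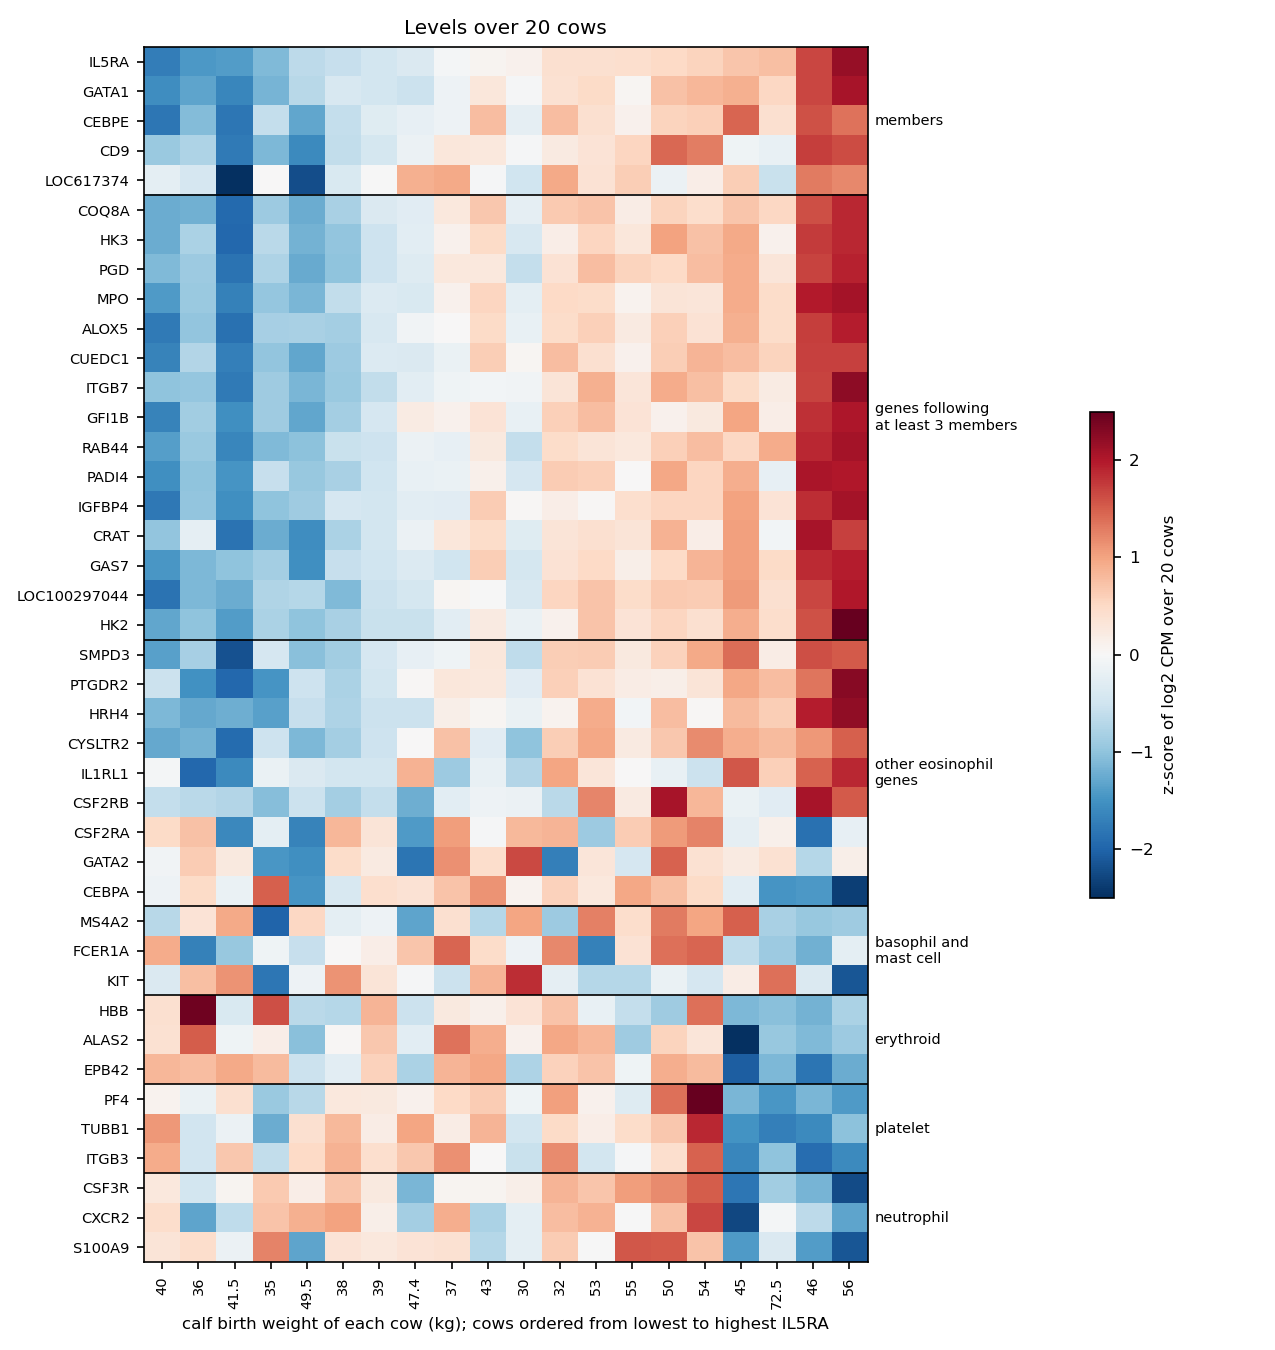
Standardized log2 CPM (z-score over 20 cows, colour scale) of the members, the 15 genes with the highest mean r among those following at least 3 members, other eosinophil genes and markers of other blood cells; columns are cows labelled by calf birth weight in kg and ordered from lowest to highest IL5RA. The genes that follow the members shade mostly from blue to red in the order of IL5RA. PF4, TUBB1 and HBB are low in the 4 right-hand columns, the cows of the 45, 72.5, 46 and 56 kg calves. The platelet marker ITGA2B and the erythroid markers KLF1 and GYPC, whose r with IL5RA was positive (0.80, 0.40 and 0.18), are not shown.

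Other genes known from eosinophils were taken from 4 lists that together hold 47 symbols, of which 44 were matched and 35 passed the filter. Of the 35, 17 (48.6%) had a mean r above 0.5 with the members, against 7.35% of all 16269 genes. Without the 4 cows of highest IL5RA there were 16, of which 15 were among the 17, against 8.14% of all genes. The shares by list follow, and differences between lists were not tested. Among 5 surface receptors, 4 were above 0.5: the leukotriene receptor CYSLTR2 (0.84), the prostaglandin D2 receptor PTGDR2 (0.84), the histamine receptor HRH4 (0.83) and the interleukin 33 receptor IL1RL1 (0.67), while the lectin SIGLEC10 had -0.070. HRH4 was between 17.3 and 91.9 CPM, with a median of 32.6, and PTGDR2 between 8.64 and 47.9, with a median of 20.9. Of 5 granule and lipid mediator genes, 3 were above 0.5, namely ALOX5 (0.89), SMPD3 (0.88) and the 5-lipoxygenase activating protein ALOX5AP (0.505). The leukotriene C4 synthase LTC4S, with 0 to 88 counts, had -0.11. When the 4 cows of highest IL5RA were left out, IL1RL1 had 0.46 and LTC4S 0.45.

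Of 12 measured genes of interleukin 5 receptor signalling, 5 were above 0.5. These were the kinase PIM1, a target of this signalling (0.85), the kinases BTK (0.74) and JAK1 (0.69), the shared beta chain CSF2RB (0.67) and the feedback inhibitor CISH (0.64). The alpha chains of the sister receptors had a mean r of 0.10 (CSF2RA) and -0.30 (IL3RA), and the signal transducers STAT5A and STAT5B had 0.078 and 0.11. When the 4 cows of highest IL5RA were left out, these values were 0.45, -0.10, 0.39 and 0.25. Of 13 transcription factors and regulators, 5 were above 0.5, among them ID2 (0.85), OLIG1 (0.76) and ZFPM1 (0.74), the cofactor of GATA1. OLIG1 and OLIG2 rest on few counts, from 0 to 82 and from 0 to 282. IRF8, a factor of monocyte and dendritic cell development, had the lowest value at -0.54 (-0.19 without the 4 cows). CEBPA and GATA2, which act earlier in granulocyte precursors, had -0.21 and 0.087 (0.45 and 0.17 without the 4 cows).

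Several genes of these lists had no counts in any cow, namely the cytokines IL5 and IL3, the ribonuclease RNASE6, the 15-lipoxygenase ALOX15 and the receptors CCR3, P2RY14 and ADORA3. A count of 0 allows up to 3 counts, which is 0.0745 to 0.121 CPM depending on the library and covers counting error only. RNASE2 had at most 2 counts and CSF2 at most 4. The chemokine receptor CCR3, a defining surface marker of eosinophils in other species, thus had no counts, although IL5RA, PTGDR2 and HRH4 were measured in every cow. Of the 44 matched genes 7 had no counts in any cow, beside 13900 of all 37063 identifiers. Whether these zeros come from low expression or from how reads were assigned to genes was not tested.

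Markers of other blood cells were set beside the members because GATA1, CEBPE and CD9 are not particular to eosinophils. Of 11 erythroid markers 0 had an r above 0.5 with GATA1, and HBB, a haemoglobin chain, had an r of -0.47 with GATA1 and -0.51 with IL5RA. KLF1 and GYPC had a positive r with GATA1, 0.40 and 0.23, and the other measured erythroid markers a negative one. When the 4 cows of highest IL5RA were left out, r with GATA1 was -0.22 for HBB and 0.49 for KLF1. Of 12 platelet markers 1 had a mean r above 0.5, ITGA2B (0.73). With CD9 alone, r was 0.83 for ITGA2B, and 0.16, -0.010 and -0.27 for PF4, TUBB1 and ITGB3. None of the 5 measured basophil and mast cell markers had a mean r above 0.5. With GATA1 alone the values were 0.062 for MS4A2, 0.032 for FCER1A, 0.097 for CPA3, -0.29 for KIT and 0.52 for SLC18A2. Without the 4 cows of highest IL5RA these values were 0.35, 0.43, 0.34, -0.098 and 0.033. Of 11 neutrophil markers 2 were above 0.5, PADI4 (0.88) and MMP25 (0.83). CSF3R and S100A9, abundant in neutrophils, had -0.28 and -0.25, but 0.41 and 0.34 without the 4 cows of highest IL5RA. Of 8 neutrophil granule genes 1 was above 0.5, MPO, and the next was ELANE with 0.34, LTF and LCN2 having -0.42 and -0.25. The counts were 0 of 9 monocyte markers, 0 of 7 B cell markers, 0 of 8 T cell markers and 1 of 8 natural killer cell markers (KLRK1, 0.53). Without the 4 cows of highest IL5RA, PF4 and ELANE were also above 0.5, at 0.51 and 0.57, from -0.060 and 0.34, and KLRK1 was not. Of the members, LOC617374 had the lowest r with 6 of 7 B cell markers, BLK being the exception: its r was -0.66 with CD22, whereas that of IL5RA was -0.13. This difference was not tested, and the part of blood cell composition in any of these relations was not tested.

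**Figure D3:**
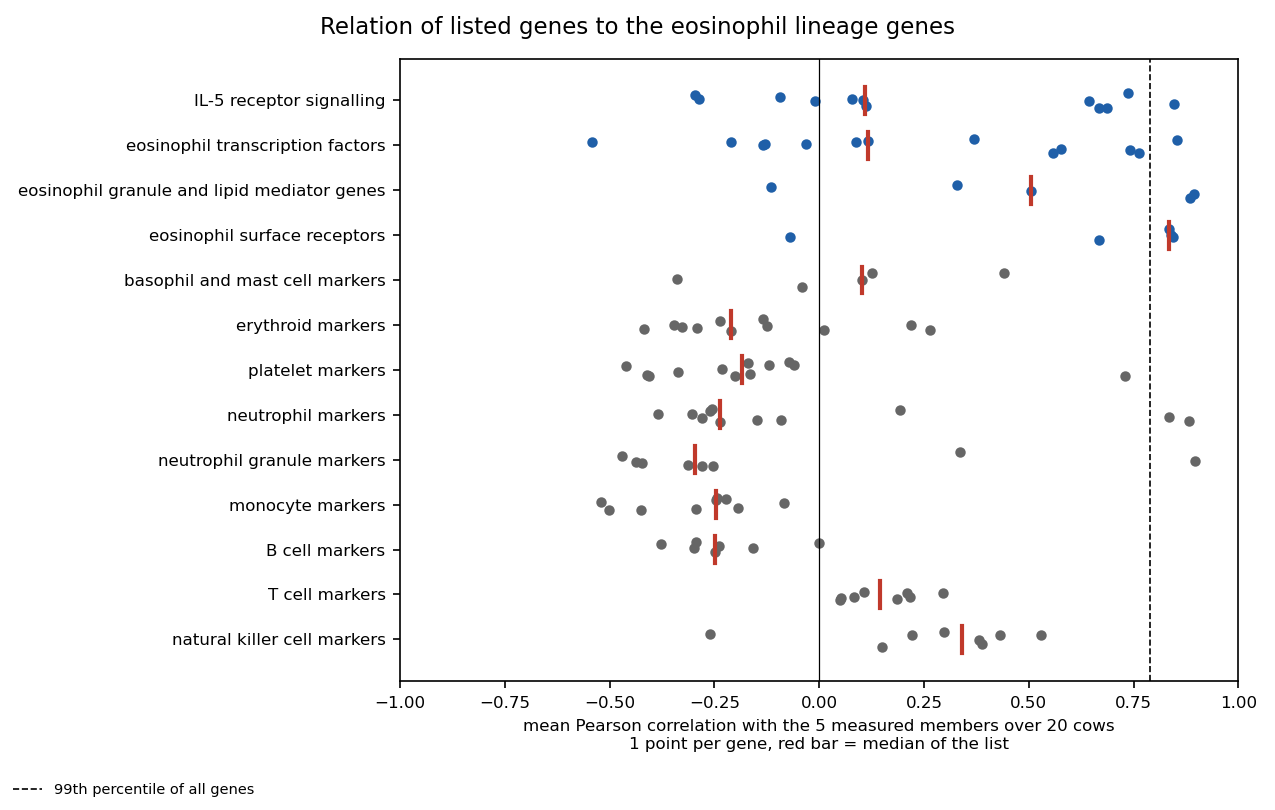
Mean Pearson correlation with the 5 measured members over 20 cows (x axis) for the genes of each list that passed the filter, with 1 point per gene, the list median as a red bar and the 99th percentile of all genes, 0.79, as a dashed line. Eosinophil lists are blue and lists of other blood cells grey; 3 grey points lie beyond the dashed line, MPO (0.90), PADI4 (0.88) and MMP25 (0.83).

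The last question was whether the members were related to calf BW. In the 10 cows with the lightest calves, IL5RA was between 20.2 and 70.7 CPM with a median of 41.4, and in the 10 cows with the heaviest calves between 37.8 and 198 with a median of 76.8. GATA1 was between 6.12 and 18.4 CPM (median 11.9) and between 10.3 and 45.0 (median 21.1), respectively. The ranges overlapped for each of the 5 members. CD9 medians were 27.0 and 37.4 CPM, those of CEBPE 10.4 and 16.8, and those of LOC617374 2.13 and 3.15.

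Over the 20 cows, Pearson's r of IL5RA with BW was 0.50 (permutation p = 0.026) and Spearman's rho 0.60 (permutation p = 0.00626). For GATA1 these were 0.46 (permutation p = 0.0411) and 0.52 (permutation p = 0.0201). For CD9 they were 0.34 (permutation p = 0.151) and 0.43 (permutation p = 0.0589), for CEBPE 0.33 (permutation p = 0.156) and 0.38 (permutation p = 0.105), and for LOC617374 0.029 (permutation p = 0.902) and 0.12 (permutation p = 0.602). Without the cows of the 72.5 and 30 kg calves, farthest from the median BW, Pearson's r was 0.57 for IL5RA, 0.55 for GATA1, 0.52 for CD9, 0.37 for CEBPE and 0.11 for LOC617374. Without the 4 cows of highest IL5RA, r was 0.39 for IL5RA (permutation p = 0.129), 0.39 for GATA1 (permutation p = 0.134), 0.38 for CD9 (permutation p = 0.143), 0.23 for CEBPE (permutation p = 0.380) and -0.0011 for LOC617374 (permutation p = 0.997). These p-values are not adjusted, and the fit across all genes below gives the adjusted ones.

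Counts were modelled on BW in 19 cows, without that of the 72.5 kg calf, with edgeR's quasi-likelihood test on 16206 genes. Of the 5 members, 0 had an FDR (Benjamini-Hochberg adjusted p over all genes) below 0.05. The background was 0%, as 0 of these genes passed with edgeR and 0 with limma and voom. On the 23087 genes with any count, edgeR called 147 (0.637%) and DESeq2 189 (0.819%), none of them a member. At an unadjusted p below 0.05, 3 members had a positive slope, against 1099 (6.78%) of all genes with a positive slope and 1148 (7.08%) with a negative slope. These 3 vary together over the same cows, so they are not 3 independent counts.

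IL5RA had a slope of 0.053 per kg on the log2 scale (standard error 0.019, edgeR p = 0.0102, FDR of 0.216). The slope of GATA1 was 0.050 (standard error 0.018, p = 0.0112, FDR of 0.222) and that of CD9 was 0.030 (standard error 0.011, p = 0.0153, FDR of 0.248). CEBPE gave 0.032 (standard error 0.019, p = 0.105, FDR of 0.480) and LOC617374 0.017 (standard error 0.022, p = 0.436, FDR of 0.778). With DESeq2 the FDR was between 0.155 and 0.776, and with voom between 0.271 and 0.894. The slopes of the members were not tested against each other.

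The unadjusted result rested on the cow of the 56 kg calf. Without it, the slopes were 0.034 for IL5RA (edgeR p = 0.10), 0.035 for GATA1 (p = 0.0835) and 0.025 for CD9 (p = 0.0541), and 0 members had a p below 0.05, against 4.41% of all genes with a positive slope. Without the 4 cows of highest IL5RA, which are also those with the lowest platelet and erythroid sums, the slopes were 0.025 (p = 0.115), 0.027 (p = 0.0960) and 0.022 (p = 0.0641), and again 0 members were below 0.05, against 4.35% of all genes with a positive slope. Choosing cows by IL5RA narrows its range. With a score of erythroid markers as a covariate, IL5RA had a slope of 0.041 (p = 0.0399), and with a platelet score 0.048 (p = 0.0127). A fit that dropped the cow of the 32 kg calf gave a slope of 0.046 for CEBPE (p = 0.0329) and 4 members below 0.05, against 7.4% of all genes with a positive slope. With the 72.5 kg calf included, the slope of CD9 was 0.018 (p = 0.0823).

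Among the 35 other eosinophil genes, the slope on BW was above 0 in 23 and below 0 in 12, with a median of 0.0058; over all genes 46.6% were above 0 and the median was -0.0007. At an unadjusted p below 0.05, 10 of the 35 were positive and 1 negative, beside 6.78% and 7.08% of all genes, and 0 had an FDR below 0.05. By list, these were 4 of 12 signalling genes, led by CSF2RB (0.025 per kg, p = 0.00219, FDR of 0.158) and including BTK, PIM1 and JAK1. In CSF2RB the level was 169 to 351 CPM over the cows, a narrower range than that of its partner chain IL5RA. The surface receptors gave 3 of 5, HRH4 (0.048 per kg, p = 0.00708), CYSLTR2 and PTGDR2, and the granule and lipid mediator genes 2 of 5, SMPD3 (0.047) and ALOX5 (0.047). Of the transcription factors, ID2 was positive (0.021 per kg, p = 0.0159) and IRF8 negative (-0.016 per kg, p = 0.00438). When the cow of the 56 kg calf was left out, 3 of the 35 were below 0.05, CSF2RB and CYSLTR2 with positive slopes and IRF8 with a negative one, beside 4.41% of all genes in the positive and 5.52% in the negative direction. Without the 4 cows of highest IL5RA there were also 3, CSF2RB (0.021 per kg, p = 0.00588), the kinase JAK2 (0.012 per kg, p = 0.0239) and IRF8 (-0.011 per kg, p = 0.0167), beside 4.35% of all genes in the positive and 5.07% in the negative direction. Without the 2 cows of highest IL5RA there were 2, CSF2RB positive and IRF8 negative, beside 4.35% and 5.21% of all genes. In these 3 fits the share of the 35, both directions together, was not above that of all genes. With the erythroid score as a covariate there were 7, beside 4.99% of all genes in the positive and 5.55% in the negative direction.

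All 27 genes that followed at least 3 members had a positive slope, from 0.012 to 0.063 per kg, and 24 had an unadjusted p below 0.05, but the smallest FDR among them was 0.173. They were chosen for varying with the members over the same cows, so their slopes are not separate evidence. HBB had a slope of -0.072 per kg (p = 0.0322, FDR of 0.307), and its part in the members' slopes was not tested beyond the erythroid covariate.

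**Figure D4:**
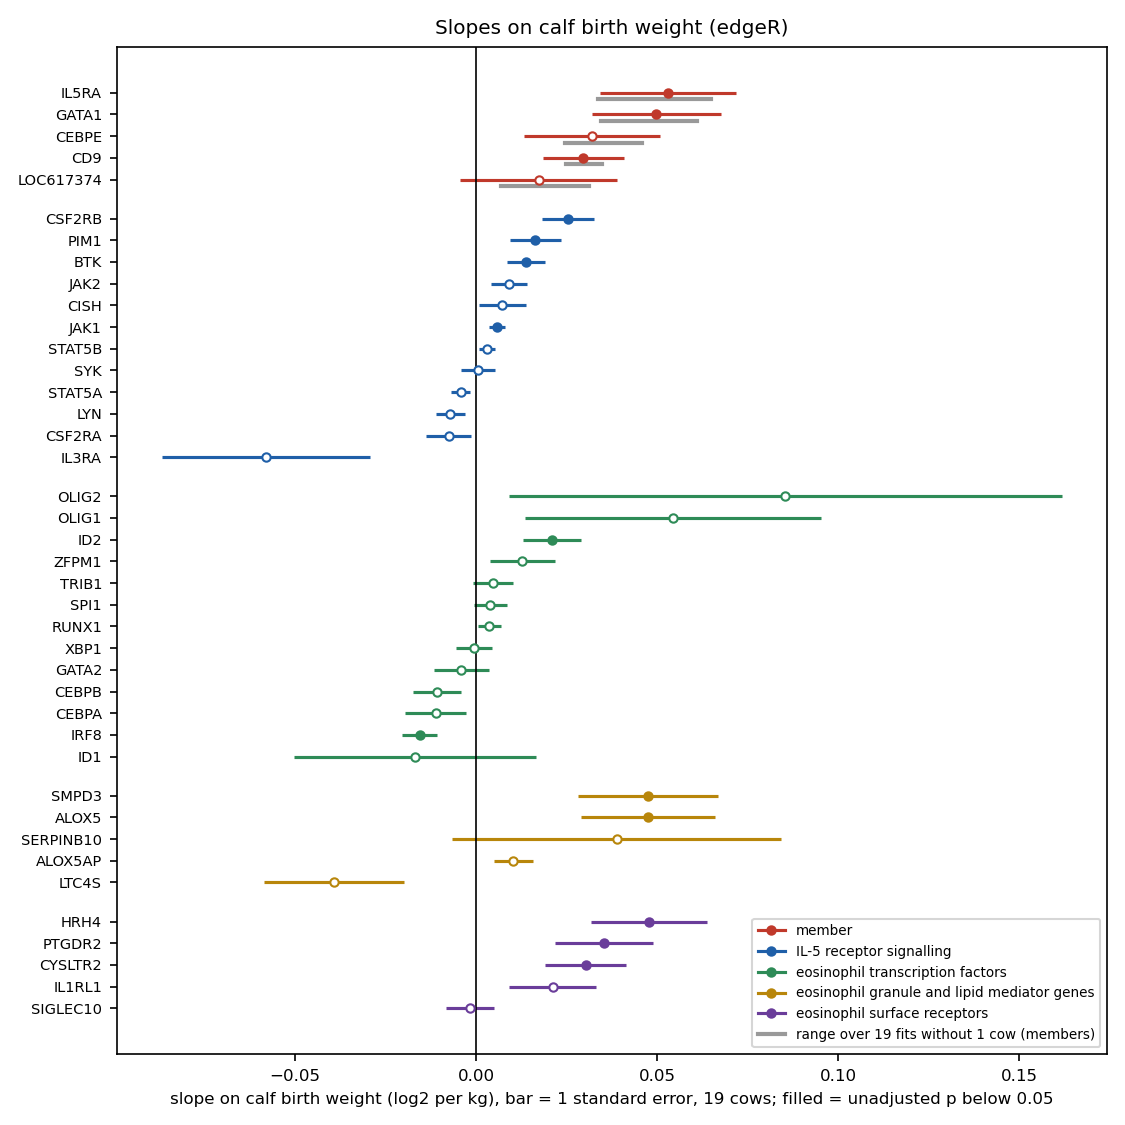
Slope on calf birth weight (log2 per kg, edgeR, 19 cows) of the members and of the genes of the 4 eosinophil lists, with bars of 1 standard error, filled points for an unadjusted p below 0.05 and grey lines for the range of the members' slopes over fits without 1 cow. IL5RA (0.053) and GATA1 (0.050) have the steepest slopes of the members, and without 1 cow at a time the slope of IL5RA ranged from 0.034 to 0.065.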

How the data were processed

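The authors trimmed reads with Trimmomatic, checked them with FastQC 0.11.9, aligned them with STAR 2.7.0b and counted them with featureCounts (Subread 2.0.3), and deposited raw counts per Entrez identifier, without normalization. The labels name a SMARTer Stranded kit, the study's text a Truseq kit, and the strand setting and the treatment of reads fitting several genes are not given in the sources used here, so paralogs and overlapping genes are uncertain. Every identifier matched the ARS-UCD2.0 gene table. No coordinates or sequences are given, since the authors aligned to another build and no sequence was at hand.

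From the counts, edgeR 4.0.16 (R 4.3.3, TMM) gave slopes on BW for genes that reached 10 counts in 5 or more of 19 cows, adjusted by the Benjamini-Hochberg method. Correlations used log2 CPM with a prior count of 2 and two-sided permutation tests of 100000 resamples. Alternatives were DESeq2 1.42.0, voom (limma 3.58.1), other size factors and filters, ranked BW, library size or marker scores as covariates, all 20 cows and leaving out each cow. Leaving out the 2 or 4 cows of highest IL5RA was added after seeing the data. With simulated counts (16206 genes, 19 cows) in which 200 genes had slopes of 0.06 per kg, edgeR recovered 83.5% with 1.76% of calls false and DESeq2 87.5% with 14.6% false. This slope is above that of each member (0.017 to 0.053). The changed genes were drawn from all genes with enough counts, most of which vary less than IL5RA. The recovered share therefore does not give the power of the fit for the members. Python 3.11.15 with pandas 2.3.3, numpy 2.4.6, scipy 1.17.1 and, for plots, matplotlib 3.10.9 did the rest.

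The members and the gene lists were chosen with earlier results of these data known. Named genes were the members, the 5 genes most like each, the 15 genes with the highest mean r among those following at least 3 members, listed eosinophil genes with the smallest p in each direction, and defining or abundant markers of other cells. Other listed genes were named after their values were seen. Each library is 1 cow, so p-values measure the spread between cows.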

Additional observations from a re-analysis of the deposited data

How the results depend on the processing

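Of 11 results compared (counts of genes, members' slopes and median correlations), 0 reversed under an alternative. All 160 slopes of members under alternatives were positive, as were the 5 main ones. Correlations of single genes were not among the 11, and some changed sign without the 4 cows of highest IL5RA. These included the mean r of CSF3R, S100A9, PF4, CEBPA and LTC4S and the r of LOC617374 with BW, given above. Leaving out 1 cow at a time gave slopes of 0.034 to 0.065 for IL5RA, 0.035 to 0.061 for GATA1, 0.025 to 0.046 for CEBPE, 0.025 to 0.035 for CD9 and 0.0069 to 0.031 for LOC617374, and between 0 and 4 members and between 3 and 14 other eosinophil genes with an unadjusted p below 0.05 (3 and 11 in all 19 cows). The fits that dropped the cow of the 56 kg calf gave the lowest slopes. With all 20 cows CD9 gave 0.018, no longer below 0.05. An erythroid covariate left 7 other eosinophil genes, beside 4.99% of all genes in the positive and 5.55% in the negative direction. Without the 2 cows of highest IL5RA, 0 members and 2 other genes were below 0.05, beside 4.35% and 5.21% of all genes, the slopes of IL5RA, GATA1 and CD9 were 0.027, 0.029 and 0.022, and the median r between pairs was 0.77. Without the 4 highest, 0 members and 3 other genes were below 0.05, beside 4.35% and 5.07%, and the slopes were 0.025, 0.027 and 0.022. The cause of these shifts was not tested. The median r of the members with BW was 0.34 (0.27 to 0.47 without 1 cow). Taking the 100 nearest genes in place of 50 gave 78 genes following at least 3 members, all 27 among them, and ranking by Spearman's rho gave 24, of which 16 were among the 27. No paired analysis was possible because all cows belong to 1 group. Depth limits mainly LOC617374, with as few as 16 counts.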
